A study of Mus musculus with 12 samples.

Results

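The comparison described here set SCA1+ fibroblasts taken from mouse skin wounds 1.5 days after injury (called 1.5 d below) against the same sorted cells from skin that had not been wounded (NW). Its members are the 3 libraries of each group, 6 of the 12 libraries of the study, chosen by their labels. The table lists 25239 genes, and 14901 of them had enough counts to be tested. All mice were wild-type male C57BL/6 animals aged 8 weeks. Wounds were full-thickness excisions of the back skin made with a 4 mm biopsy punch, with 3 mice for each time, and the remaining libraries came from wounds harvested at 16 h and at 3 d. Skin was digested with liberase and live cells were sorted as negative for CD45, a leukocyte marker, and CD31, an endothelial marker, and positive for SCA1, the product of Ly6a. No fibroblast-specific antibody was part of that gate. The libraries were made from polyA RNA with an amplifying low-input kit and sequenced as read pairs.

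Dermal fibroblasts make and maintain the collagen-rich matrix of the skin. After an injury they are among the cells that release chemokines, which draw neutrophils and monocytes into the wound, and they later divide, move into the provisional matrix, lay down new matrix and in part become contractile myofibroblasts. SCA1 is common on fibroblasts of the deep dermis and fascia, a population that also holds adipocyte precursors.

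The library totals ran from 27407164 to 29181224 counts in NW and from 32277039 to 43493475 counts at 1.5 d. Levels are given as CPM, counts per 1000000 counts of the library, with library sizes scaled by the trimmed mean of M-values, in the order of replicates 1, 2 and 3. Changes are log2 ratios of 1.5 d over NW with their standard error (SE), and p-values are from edgeR's quasi-likelihood test with a Benjamini-Hochberg correction across the 14901 genes. Genes with an adjusted p under 0.05 are termed called, and only they are said to rise or fall; where a gene rose or fell by a value, that value is on the log2 scale. The sorted cells carried fibroblast transcripts: Col1a1, Col3a1, Col1a2 and Sparc were among the 5 genes with the most counts in both groups. Ptprc, which encodes CD45, was at 2.56, 0 and 0 CPM in NW and 0.467, 1.43 and 2.26 CPM at 1.5 d, and Pecam1, which encodes CD31, was at 0.0763, 1.09 and 3.98 CPM in NW and 0.400, 0.197 and 0.0443 CPM at 1.5 d. Neither was called, but without NW replicate 1, the only NW library with a Ptprc count, Ptprc was called higher (adjusted p = 0.00649) and Pecam1 lower (adjusted p = 0.0394). Csf1r, a receptor of monocytes and macrophages, was nevertheless at 91.9, 34.0 and 54.5 CPM in NW and 37.8, 33.2 and 50.3 CPM at 1.5 d. It was named after its values were seen.

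Of the 14901 genes tested, 24.5% were called: 2034 (13.7%) were higher and 1613 (10.8%) were lower at 1.5 d. Among these, 1501 (10.1% of genes tested) were at least 2-fold higher and 1343 (9.01%) at least 2-fold lower, while the median change of all genes was 0.01. Without 1.5 d replicate 3 the number called lower was 961. The 3 values of one group lay wholly above or below the 3 of the other for 40.7% of genes. On the first principal component of the 12 libraries, which held 34.9% of the variance, the NW libraries lay between -128.6 and -114.2 and the 1.5 d libraries between 34.5 and 68.2.

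**Figure D1:**
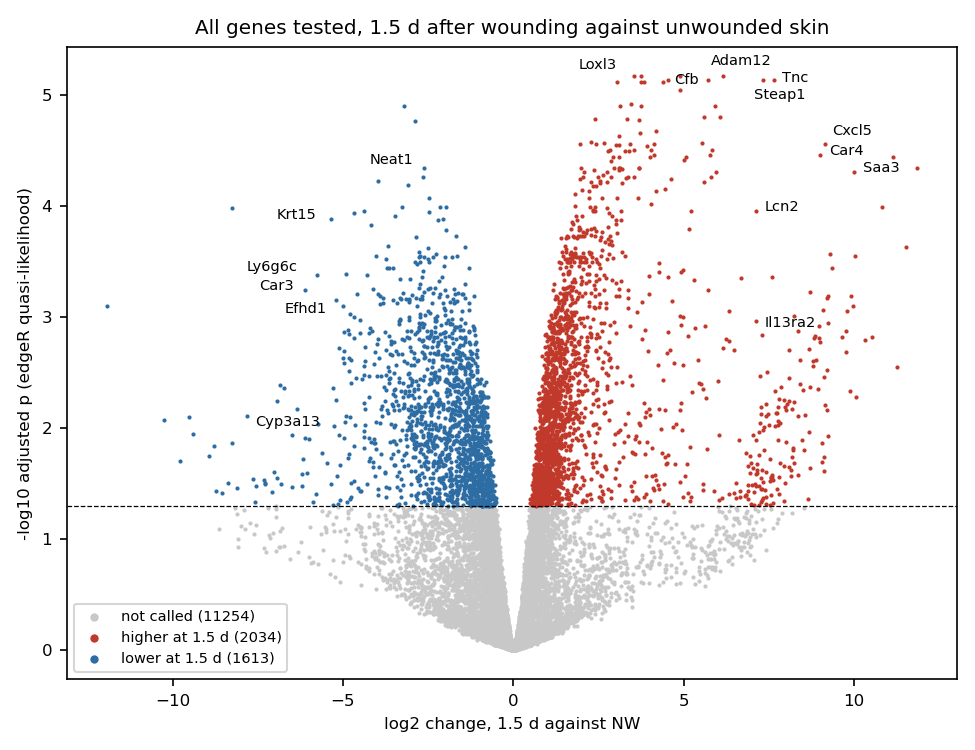
Each point is 1 of the 14901 genes tested, placed by its log2 change at 1.5 d against NW (x axis) and by -log10 of its adjusted p from edgeR (y axis); the dashed line marks an adjusted p of 0.05. The 2034 genes called higher are red and the 1613 called lower are blue; unlabelled points far to either side are genes with few counts, many of them at 0 in one group, whose fitted change is not a measured fold.

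Keratinocyte transcripts, the most abundant of those from other cell types, moved with the comparison. The 18 keratinocyte markers together took 3.05% ± 1.02 (SD, n = 3; range 1.93 to 3.93) of the counts in NW and 0.61% ± 0.168 (SD, n = 3; range 0.442 to 0.778) at 1.5 d. Krt14 itself, a keratin of basal keratinocytes, was at 5072, 9352 and 6771 CPM in NW and 3221, 3644 and 1995 CPM at 1.5 d (log2 change -1.26 ± 0.65, adjusted p = 0.182). Of those markers, 11 of 18 were called lower and 2 higher (1 with limma-voom), with a median log2 change of -2.13; 7 were lower without 1.5 d replicate 3. A fit with a keratinocyte score of each library as a covariate called 747 genes higher and 420 lower, but that score ran from 7.67 to 9.04 in NW and from 6.09 to 6.81 at 1.5 d, so it overlapped in no library and the fit cannot fully separate it from wounding. Of the 295 genes under the naming rules that were called, 201 were called in that fit too. It left 5 keratinocyte markers lower. The called genes named in the text that were not called in that fit were Angptl1, Atp5a1, B2m, C1qc, Car3, Ccl7, Ccnd1, Ccnd2, Cd34, Cdh11, Col1a2, Cpt1a, Csf3r, Cxcl1, Cyp3a13, Dpp4, Egr1, Fcgr1, Fos, H2-K1, Hif1a, Hmgcs1, Hp, Id1, Ier3, Igf1, Il6, Isg15, Jun, Lox, Lrrc17, Ly6a, Lyz2, Myc, Ncl, Ndufv1, Nlrc5, Nos2, Pfkp, Ppara, Ptgs1, Ptgs2, S100a9, Sparc and Tgfb3. The part of keratinocyte RNA in the changes below was not tested beyond this. The number from that fit is given for most list counts that moved by more than 1.5 times.

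**Figure D2:**
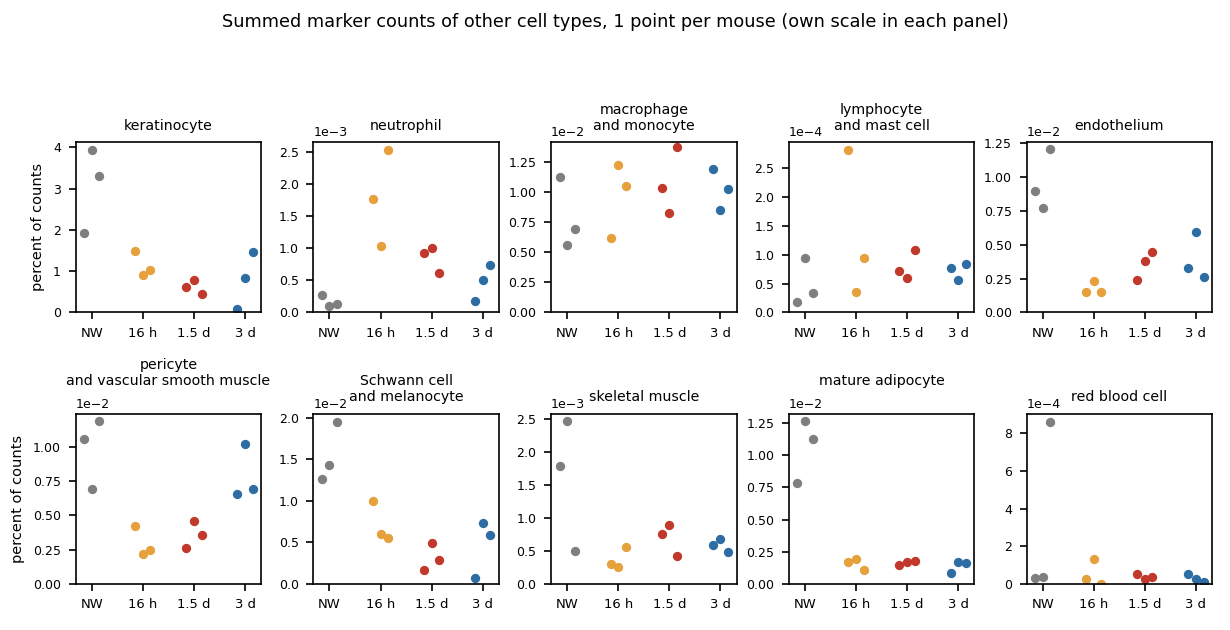
Each panel gives the percent of a library's counts (y axis, own scale in each panel) that fell on the markers of 1 other cell type, with 1 point per mouse at NW, 16 h, 1.5 d and 3 d. Keratinocyte markers took 3.05% on average in NW and 0.61% at 1.5 d, whereas each other type stayed below 0.02% in every library.

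The other marker lists were at trace levels. Markers of endothelium, pericytes, Schwann cells and melanocytes, and mature adipocytes each took less than 0.02% of counts, and every 1.5 d library was below every NW library. Neutrophil markers took 0.000162% ± 9.16e-05 of counts in NW and 0.000855% ± 0.000204 at 1.5 d (SD, n = 3), and S100a9, one of the most abundant neutrophil transcripts, reached no more than 1.77 CPM. Cxcr2 and Csf3r, receptors of neutrophils, had no count in NW and were at least 57.4-fold and 21.2-fold higher at 1.5 d against a floor of 3 counts over the NW group. Cxcr2 was called in all 16 alternatives, whereas Csf3r (adjusted p = 0.0397) lost its call in 8, among them the removal of any 1 library, with adjusted p up to 0.0923. Macrophage and monocyte markers took 0.00795% ± 0.00295 of counts in NW and 0.0108% ± 0.00276 at 1.5 d (SD, n = 3), ranges that overlap. Much of that share was Csf1r, at 60.1 CPM on average in NW and 40.4 CPM at 1.5 d. Csf1r was not called (log2 change -0.57 ± 0.33, adjusted p = 0.23), whereas the median log2 change of the list was 1.97. Lyz2, the macrophage lysozyme, was at 5.95, 2.57 and 1.46 CPM in NW and 25.2, 6.97 and 22.2 CPM at 1.5 d (log2 change 2.45 ± 0.61, adjusted p = 0.0111), and 7 of the 18 markers of that list were called higher (1 with the keratinocyte covariate). Mrc1, Fcgr1 and C1qc, 3 macrophage genes without a count in NW, were at least 41.0-fold, 20.5-fold and 35.5-fold higher against the same floor. The part of leukocyte RNA in the rises below was not tested. Cd3e, Hba-a1 and Hbb-bs, defining markers of T cells and red blood cells, were at 0 in all 6 libraries. In bulk RNA, fewer cells of a type and less RNA per cell cannot be told apart.

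The largest log2 changes among called genes that averaged 20 CPM or more at 1.5 d, with no overlap between groups, were those of Saa3, Cxcl5, Car4 and Tnc. Saa3, an acute-phase serum amyloid made locally in inflamed tissue (build mm10, chr7:46711998-46715676), was at 6.75, 0.724 and 0.796 CPM in NW and 4786, 2274 and 1365 CPM at 1.5 d (log2 change 10.01 ± 1.03, adjusted p = 4.89e-05). Cxcl5, a neutrophil-attracting chemokine (chr5:90759298-90761625), was at 10.2, 0.954 and 2.69 CPM in NW and 3684, 1583 and 2609.7 CPM at 1.5 d (log2 change 9.16 ± 0.85, adjusted p = 2.73e-05). Tnc, which encodes the wound matrix protein tenascin C (chr4:63959785-64047015), was at 17.2, 11.6 and 10.2 CPM in NW and 2452, 2397 and 2949 CPM at 1.5 d (log2 change 7.64 ± 0.56, adjusted p = 7.27e-06). For Saa3, Cxcl5 and Tnc the lowest 1.5 d library was more than 100 times the highest NW library. Saa3 and other serum amyloid genes resemble one another in sequence, and pairs that mapped to several places were not counted.

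Car4, a carbonic anhydrase on the cell surface, was at 0.153, 0.625 and 0 CPM in NW and 212, 41.6 and 159 CPM at 1.5 d (log2 change 9.01 ± 0.87, adjusted p = 3.48e-05), with replicate 2 about 5 times below replicate 1 at 1.5 d. Lcn2, the iron-sequestering lipocalin, was at 3.93, 1.09 and 1.33 CPM in NW and 429, 205 and 247 CPM at 1.5 d (log2 change 7.13 ± 0.83, adjusted p = 0.00011). Steap1, a metalloreductase family member, was at 0.420, 0.526 and 1.16 CPM in NW and 155, 82.9 and 103 CPM at 1.5 d (log2 change 7.32 ± 0.53, adjusted p = 7.27e-06). Both were under 4 CPM in every NW library. Il13ra2, the decoy receptor for IL-13, was at 0, 0.559 and 0 CPM in NW and 35.3, 14.8 and 32.1 CPM at 1.5 d (log2 change 7.13 ± 1.17, adjusted p = 0.00108). Ereg, an EGF receptor ligand, had a log2 change of 6.32 ± 1.12, Lmcd1, a LIM domain transcriptional cofactor, of 6.69 ± 0.95, and Adam12, a membrane metalloprotease, of 6.15 ± 0.39. The smallest p-values were those of Loxl3, Adam12, Glipr2 and Rtn4rl2, each with an adjusted p of 6.67e-06. Loxl3, a lysyl oxidase that cross-links collagen, was at 40.1, 29.8 and 45.8 CPM in NW and 507, 435 and 598 CPM at 1.5 d (log2 change 3.73 ± 0.25, adjusted p = 6.67e-06). About 13% of its exon bases are shared with another gene, where reads of the 2 cannot be told apart. S1pr3, a receptor of sphingosine 1-phosphate, rose 52.0-fold and the complement component Cfb 23.2-fold.

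**Figure D3:**
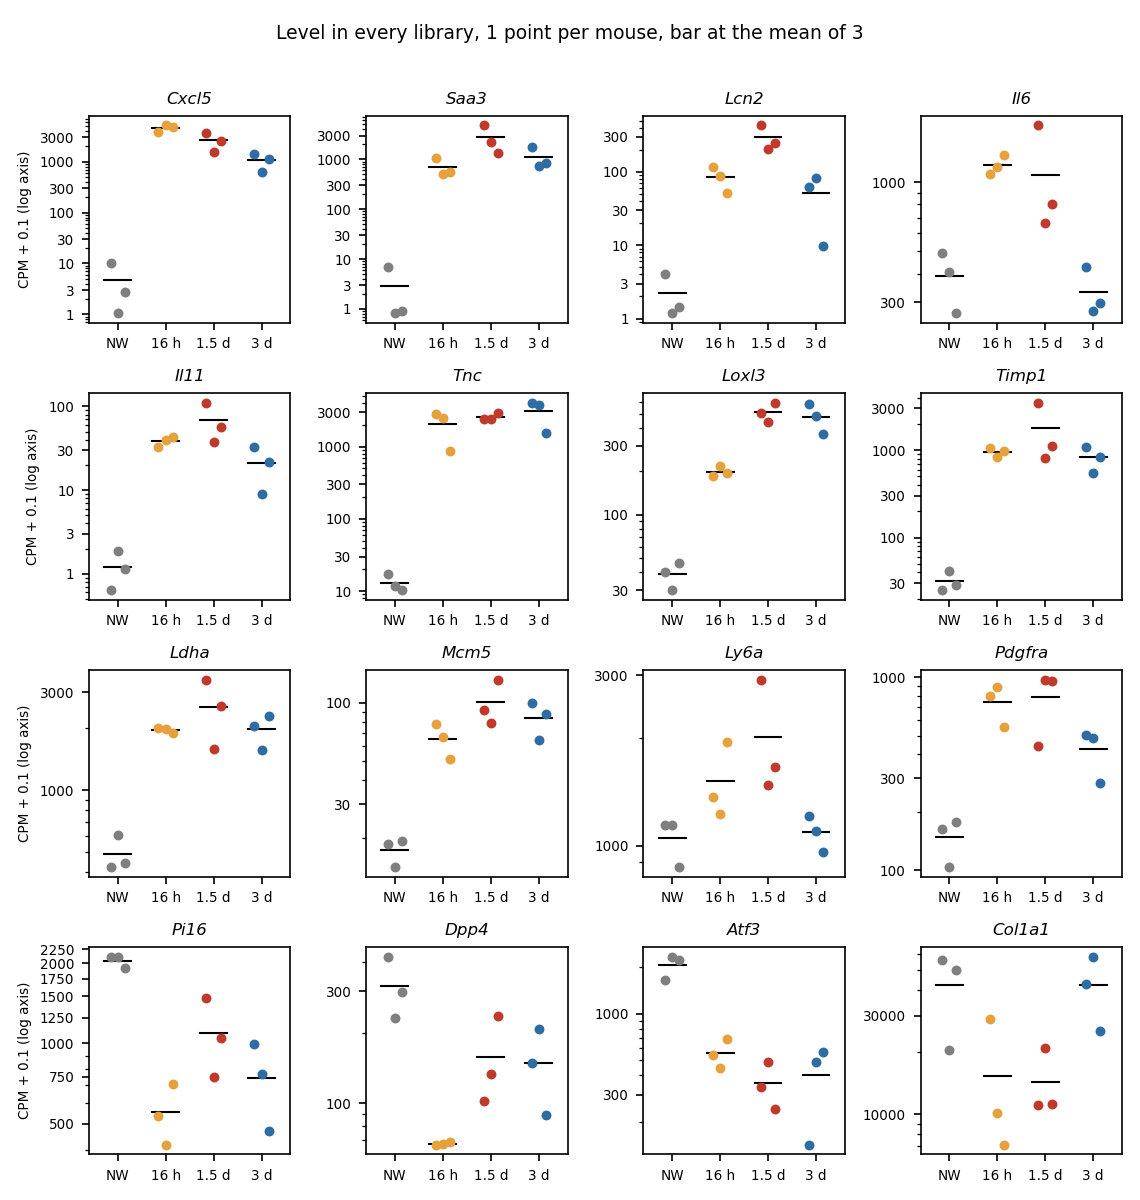
Level in each of the 12 libraries as CPM plus 0.1 on a log axis, with 1 point per mouse and a bar at the mean of 3, for 16 genes that the text names. In every panel from Cxcl5 to Pdgfra all 1.5 d libraries (red) lie above all NW libraries (grey); for Pi16 and Atf3 they lie below, for Dpp4 the highest 1.5 d library is just above the lowest NW library, and for Col1a1 the groups overlap.

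Chemokines that attract neutrophils rose as a group. All 5 of the 5 tested were called higher, with a median log2 change of 4.13 against 0.01 over all genes. Cxcl1 was already expressed before injury, at 1187, 1309 and 702 CPM in NW and 3689, 2078 and 2203 CPM at 1.5 d (log2 change 1.32 ± 0.30, adjusted p = 0.00717; adjusted p = 0.109 with the keratinocyte covariate). Cxcl2 was at 146, 152 and 75.3 CPM in NW and 527, 356 and 287 CPM at 1.5 d (log2 change 1.65 ± 0.29, adjusted p = 0.00151). Cxcl3 was at 25.5, 19.5 and 9.59 CPM in NW and 478, 207 and 274 CPM at 1.5 d (log2 change 4.13 ± 0.40, adjusted p = 3.48e-05). The groups did not overlap for any of them, and for all 3 genes NW replicate 3 was the lowest library. Ppbp had no count in NW and reached 2.33, 0.517 and 2.50 CPM at 1.5 d, at least 50.9-fold higher against that floor.

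Cxcl1, Cxcl2 and Cxcl3 lie close together on chromosome 5, and the 250 bases before each start are shown because these genes rose together and share a letter pattern there. The sequences are from RefSeq (build GRCm38.p6, 1 start per gene), given 5′ to 3′ on the gene's strand, with letters that match the kappa B consensus, the binding pattern of the inflammatory factor NF-kB, in capitals.
Cxcl1, chr5:90890995-90891244, plus strand: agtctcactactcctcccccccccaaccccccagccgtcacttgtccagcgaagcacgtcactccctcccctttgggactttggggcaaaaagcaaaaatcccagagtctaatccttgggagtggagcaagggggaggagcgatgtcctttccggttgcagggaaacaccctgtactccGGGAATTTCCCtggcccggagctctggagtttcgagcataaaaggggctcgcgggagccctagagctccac
Cxcl2, chr5:90903649-90903898, plus strand: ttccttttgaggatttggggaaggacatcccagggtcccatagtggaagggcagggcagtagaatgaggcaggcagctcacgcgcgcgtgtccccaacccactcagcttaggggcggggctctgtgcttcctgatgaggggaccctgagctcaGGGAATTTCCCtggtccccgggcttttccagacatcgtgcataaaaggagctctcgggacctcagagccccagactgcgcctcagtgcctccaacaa
Cxcl3, chr5:90785851-90786100, plus strand: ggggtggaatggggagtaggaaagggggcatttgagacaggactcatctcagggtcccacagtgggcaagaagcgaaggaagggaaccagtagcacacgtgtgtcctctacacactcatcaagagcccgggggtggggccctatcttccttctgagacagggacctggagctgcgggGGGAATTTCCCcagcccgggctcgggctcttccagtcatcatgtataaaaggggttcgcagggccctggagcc
Each promoter had 2 matches, shifted against each other by 1 base and so sharing most of their letters, 71 to 61 bases before the start in Cxcl1, 97 to 87 in Cxcl2 and 73 to 63 in Cxcl3. Of the 14901 genes tested, 11725 were matched to a promoter by symbol. The pattern was in 8.8% of those, in 10.9% of the 1591 called higher and in 9.99% of the 1251 called lower. Of the 4 neutrophil chemokine promoters in the table, that of Ppbp had no match; of 15 immediate early genes, a list in which more genes fell than rose, 5 (33.3%) had one. Such a match describes the sequence and shows no binding.

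Of other chemokines, 5 of 17 rose and 2 fell (1 when any library but 1.5 d replicate 1 was left out, and 1 with the keratinocyte covariate), with a median log2 change of 0.78. Cxcl12, a chemokine of stromal cells that retains leukocytes and stem cells, was at 418, 258 and 140.5 CPM in NW and 2199, 1791 and 1562 CPM at 1.5 d (log2 change 2.77 ± 0.35, adjusted p = 0.000198). Cxcl14, which is abundant in skin, was at 142, 195 and 166 CPM in NW and 919, 587 and 465 CPM at 1.5 d (log2 change 1.97 ± 0.28, adjusted p = 0.00043). For both genes every 1.5 d library lay above every NW library. The monocyte chemokines differed among themselves: Ccl7 had a log2 change of 1.17 ± 0.35 (adjusted p = 0.0266; not called without NW replicate 3, without 1.5 d replicate 1 or with the keratinocyte covariate), whereas Ccl2 was at 1560.0, 1786 and 801 CPM in NW and 3778, 1824 and 1514 CPM at 1.5 d and did not pass (log2 change 0.78 ± 0.39, adjusted p = 0.167). Cxcl16, which has a membrane-bound form, fell by 1.72 on the log2 scale. Without NW replicate 3 or without 1.5 d replicate 1, 3 genes were called higher, and 2 with the keratinocyte covariate.

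Among cytokines and colony-stimulating factors, 9 of 19 rose and 2 fell (median 0.96; 1 lower with the keratinocyte covariate). Il6 was at 491, 408 and 269 CPM in NW and 1764, 665 and 800.5 CPM at 1.5 d (log2 change 1.47 ± 0.35, adjusted p = 0.00885; adjusted p = 0.14 with the keratinocyte covariate). Its relatives that also signal through gp130 rose more: Il11 was at 0.534, 1.78 and 1.03 CPM in NW and 111, 37.5 and 57.3 CPM at 1.5 d (log2 change 5.93 ± 0.61, adjusted p = 4.89e-05). Lif was at 23.7, 6.88 and 14.5 CPM in NW and 366, 156 and 223 CPM at 1.5 d (log2 change 4.05 ± 0.46, adjusted p = 9.53e-05). That difference in size between genes was not tested. The alarmin Il33, stored in the nuclei of stromal cells, was at 149, 277 and 189.9 CPM in NW and 3063, 1206 and 2064 CPM at 1.5 d (log2 change 3.36 ± 0.35, adjusted p = 5.45e-05). Csf3, the granulocyte colony-stimulating factor, named here after its values were seen, averaged 8.64 CPM in NW and 452 CPM at 1.5 d (log2 change 5.71 ± 0.85, adjusted p = 0.000573). Tnfsf11, which encodes RANKL, had no count in NW and 12.6, 4.43 and 10.2 CPM at 1.5 d, at least 254-fold higher against the same floor. Il34, a ligand of the CSF1 receptor that skin makes at rest, went the other way, from 39.4, 71.0 and 66.8 CPM to 9.06, 5.69 and 9.63 CPM (log2 change -2.86 ± 0.36, adjusted p = 0.000188).

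The receptors for these signals changed widely, with 14 of 20 higher, 3 lower and a median of 1.13 (9 higher with the keratinocyte covariate). Il1rl1, the IL-33 receptor, which also exists as a soluble decoy, was at 32.9, 25.8 and 9.88 CPM in NW and 2039, 1246 and 1324 CPM at 1.5 d (log2 change 6.07 ± 0.51, adjusted p = 1.58e-05). The ligand gene Il33 and its receptor gene thus rose together. Tnfrsf11b, the RANKL decoy osteoprotegerin, was at 1.18, 2.43 and 1.13 CPM in NW and 94.1, 32.8 and 34.3 CPM at 1.5 d (log2 change 5.08 ± 0.50, adjusted p = 3.61e-05), alongside the rise of Tnfsf11. Il1r1, Il4ra and Ifnar2, which bind IL-1, IL-4 and type I interferon, rose by 2.58, 2.21 and 1.53 on the log2 scale. Il1r2, the IL-1 decoy receptor, chosen after its values were seen, fell by 2.05 on that scale.

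Genes of the NF-kB pathway and its feedback did not move one way: 5 of 19 rose and 4 fell (2 and 1 with the keratinocyte covariate). Vcam1, a leukocyte adhesion molecule, was at 76.3, 39.0 and 64.1 CPM in NW and 418, 349 and 432 CPM at 1.5 d (log2 change 2.74 ± 0.28, adjusted p = 4.89e-05). Sod2, the mitochondrial superoxide dismutase, had a log2 change of 2.37 ± 0.35. The interferon-regulated factor Irf1 was lower, at 355, 325 and 256 CPM in NW and 59.2, 88.3 and 58.0 CPM at 1.5 d (log2 change -2.19 ± 0.32, adjusted p = 0.000473). Interferon-stimulated genes rose in 13 of 24 cases (median 1.42; 7 higher with the keratinocyte covariate). Zbp1, a sensor of nucleic acid, was at 16.3, 16.7 and 12.8 CPM in NW and 142, 82.6 and 111 CPM at 1.5 d (log2 change 2.87 ± 0.30, adjusted p = 5.45e-05), and Oas1a, Oasl2 and Irf7 had log2 changes of 3.00 ± 0.52, 2.41 ± 0.42 and 2.19 ± 0.40. Isg15, a ubiquitin-like protein named after its values were seen, had a log2 change of 1.56 ± 0.52 (adjusted p = 0.042); it lost its call in 9 of 16 alternatives, among them every left-out library but 1.5 d replicate 3, with adjusted p up to 0.319. The list of MHC class I and peptide loading did not follow: 2 of 15 rose and 3 fell. The risers, Calr and Pdia3, are chaperones of the endoplasmic reticulum that fold glycoproteins in general, and the fallers were B2m (-1.24 ± 0.29), H2-K1 (-1.17 ± 0.28) and Nlrc5, the activator of class I genes (-2.48 ± 0.60). None of the list was called lower with the keratinocyte covariate, and 5 were without 1.5 d replicate 1, with DESeq2 and with limma-voom.

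In the complement and acute-phase list, 7 of 19 rose and 3 fell. Besides Saa3, Lcn2 and Cfb, Ptx3, a soluble pattern-recognition protein, was at 1092, 836 and 624 CPM in NW and 5635, 2372 and 4439 CPM at 1.5 d (log2 change 2.29 ± 0.34, adjusted p = 0.000602). The complement regulators on the cell surface fell: Cd59a had a log2 change of -3.08 ± 0.47 and Cd55 of -1.31 ± 0.27. In prostaglandin metabolism, 4 of 14 rose and 3 fell (1 with the keratinocyte covariate). Ptgis, the prostacyclin synthase, was at 14.3, 13.3 and 11.5 CPM in NW and 284, 128 and 269 CPM at 1.5 d (log2 change 4.12 ± 0.38, adjusted p = 2.73e-05), and the prostacyclin receptor Ptgir rose by 2.56. The inducible cyclooxygenase Ptgs2 rose by 1.35 and the constitutive Ptgs1 fell by 1.94, both on the log2 scale.

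Immediate early genes, which cells switch on within minutes of a stimulus, were lower at 1.5 d. Of 19 tested, 16 fell and 2 rose, with a median log2 change of -1.19 (6 lower and 1 higher with the keratinocyte covariate). Atf3, a stress-induced transcription factor, was at 1654, 2339 and 2229 CPM in NW and 336, 486 and 244 CPM at 1.5 d (log2 change -2.55 ± 0.43, adjusted p = 0.00134). Zfp36, which destabilises cytokine messages, was at 1855, 2057 and 2006 CPM in NW and 491, 735 and 437 CPM at 1.5 d (log2 change -1.83 ± 0.29, adjusted p = 0.000875). In both cases every 1.5 d library was under 1 in 2 of the lowest NW library. Btg2, Ier2 and Jund fell by 1.29, 1.81 and 1.34 on the log2 scale. Fos, Jun and Egr1, chosen after their values were seen, fell by 1.54, 1.35 and 1.23. The 2 that rose were Nr4a2 (1.14 ± 0.24) and Ier3 (1.42 ± 0.29), also named after their values were seen. The Egr1 call was lost without NW replicate 3, 1.5 d replicate 1 or 1.5 d replicate 3. Among heat shock genes, 5 of 14 fell. Hspb1, a small heat shock protein, was at 374, 783 and 427 CPM in NW and 70.6, 55.8 and 38.9 CPM at 1.5 d (log2 change -3.26 ± 0.37, adjusted p = 0.000101). Dnajb1 fell by 1.78. Hspa1a and Hspa1b, near-identical copies, had log2 changes of -2.40 ± 0.37 and -2.20 ± 0.39. Pairs that mapped to both copies were not counted, so these values leave out reads from the parts they share. Hspd1, the mitochondrial chaperonin, rose (1.48 ± 0.21).

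**Figure D4:**
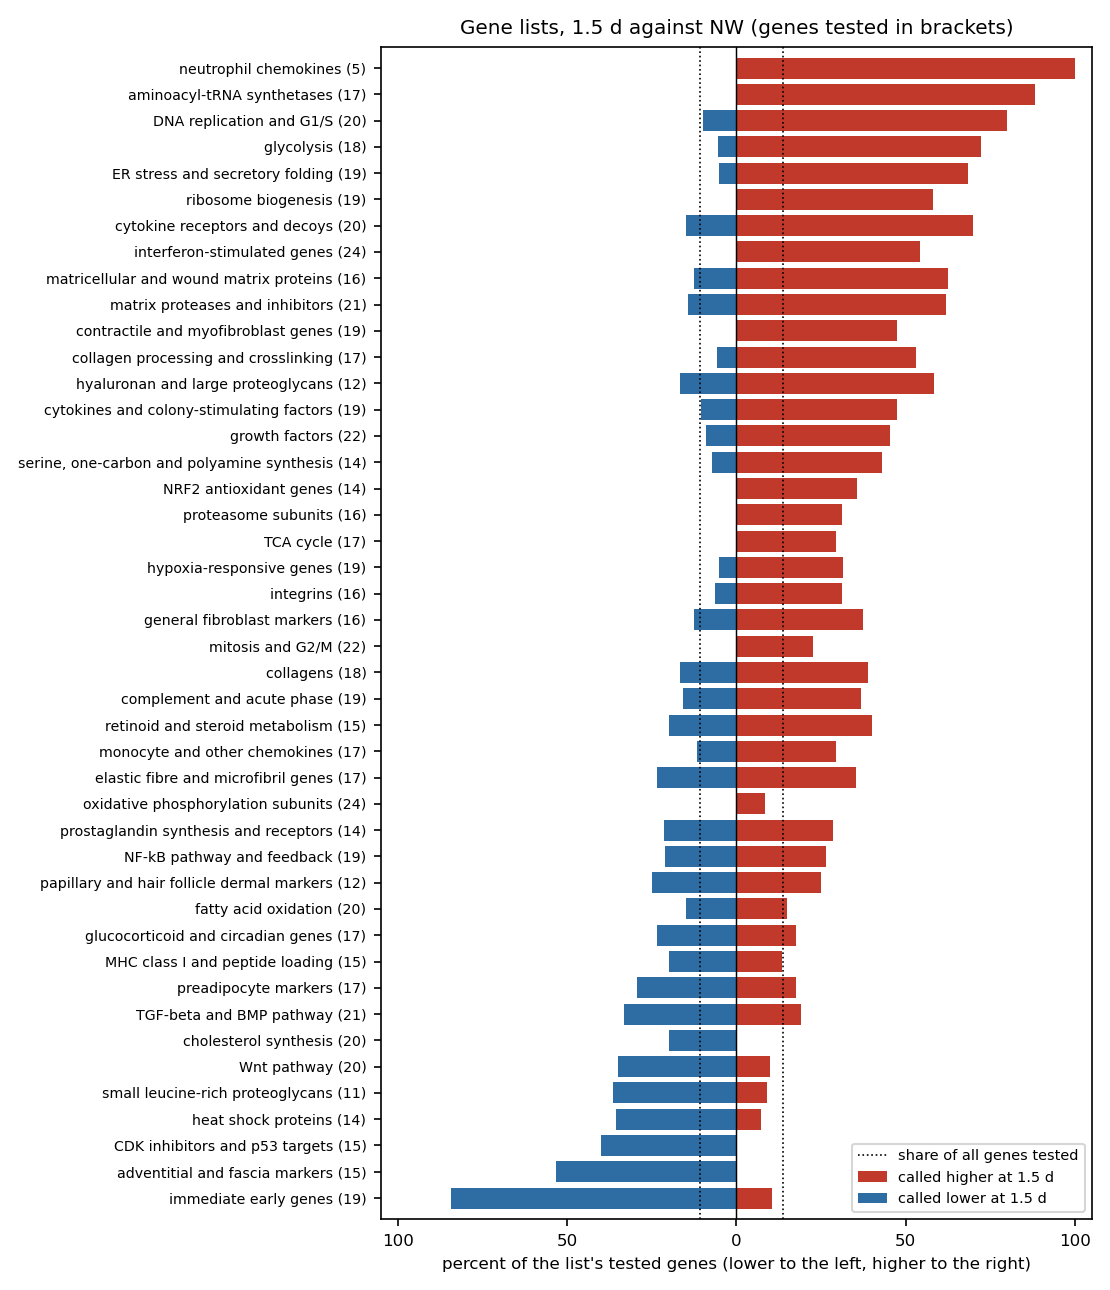
For each of the 44 gene lists on fibroblast programmes, the bar to the right gives the percent of tested genes called higher at 1.5 d and the bar to the left the percent called lower, with the number tested in brackets. The dotted lines mark the shares over all genes tested, 13.7% higher and 10.8% lower; neutrophil chemokines stand at the top and immediate early genes at the bottom.

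In glycolysis, 13 of 18 rose and 1 fell, with a median log2 change of 1.62. Pkm, the last kinase of the pathway, was at 411, 515 and 521 CPM in NW and 2387, 1970.2 and 2622 CPM at 1.5 d (log2 change 2.27 ± 0.21, adjusted p = 2.66e-05). Ldha, which makes lactate, was at 421, 607 and 441 CPM in NW and 3446, 1594 and 2574 CPM at 1.5 d (log2 change 2.37 ± 0.29, adjusted p = 0.000155). Slc16a3, which exports it, was at 9.08, 14.8 and 9.72 CPM in NW and 213, 83.5 and 251 CPM at 1.5 d (log2 change 4.03 ± 0.38, adjusted p = 3.1e-05). For none of these genes did the groups overlap. Gapdh and Eno1 rose by 2.01 and 1.70, and the gene that fell was Pfkp (-0.70 ± 0.21), named after its values were seen; its call was lost when any library but NW replicate 2 was left out. Of genes that respond to low oxygen, 6 of 19 rose and 1 fell. Vegfa, the main angiogenic factor, was at 54.7, 41.7 and 46.9 CPM in NW and 297, 159 and 236 CPM at 1.5 d (log2 change 2.27 ± 0.24, adjusted p = 6.05e-05). Hif1a, the oxygen-regulated factor that is controlled mainly as a protein, was at 277, 254 and 326 CPM in NW and 506, 804 and 939 CPM at 1.5 d (log2 change 1.39 ± 0.30, adjusted p = 0.005; adjusted p = 0.0615 with the keratinocyte covariate).

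In the TCA cycle 5 of 17 rose, of which 3 were called without NW replicate 3 or without 1.5 d replicate 3 and 1 with the keratinocyte covariate, and Dlst, a subunit of the 2-oxoglutarate dehydrogenase, had a log2 change of 1.01 ± 0.18. Of 24 nuclear-encoded subunits of oxidative phosphorylation, 2 rose, Ndufv1 (0.78 ± 0.18) and Atp5a1 (0.59 ± 0.17), a share of the list below that of all genes. That count was 1 without NW replicate 2 or without 1.5 d replicate 3, 4 with DESeq2 and 0 with the keratinocyte covariate. The table holds no mitochondrially encoded gene. Fatty acid oxidation had 3 of 20 higher and 3 lower, 30% called against 24.5% of all genes, with a median log2 change of 0.04. With the keratinocyte covariate 1 was higher and none lower, and 1 was lower without NW replicate 3 or 1.5 d replicate 3. Cpt1a, which admits fatty acids to the mitochondrion, rose by 1.43, and Ppara, its nuclear receptor regulator, fell by 3.02 (adjusted p = 0.0241). The Ppara call was lost without NW replicate 3, 1.5 d replicate 1 or 1.5 d replicate 3 and with the keratinocyte covariate (adjusted p = 0.0805, 0.081, 0.0779 and 0.216). In cholesterol synthesis 4 of 20 fell, led by Hmgcs1 (-0.96 ± 0.21); without 1.5 d replicate 3, 1 was called lower, and with the keratinocyte covariate none was.

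Aminoacyl-tRNA synthetases, which charge tRNAs for translation, rose in 15 of 17 cases, with a median log2 change of 1.03 (6 with the keratinocyte covariate). Gars was at 143, 110.1 and 139 CPM in NW and 319, 336 and 364 CPM at 1.5 d (log2 change 1.38 ± 0.19, adjusted p = 0.000356). Vars was at 77.2, 46.5 and 74.7 CPM in NW and 179.7, 254 and 349 CPM at 1.5 d (log2 change 1.98 ± 0.29, adjusted p = 0.000503). Ribosome biogenesis genes rose in 11 of 19 cases (median 0.83; 4 with the keratinocyte covariate), among them Mybbp1a (1.37 ± 0.20) and the rRNA methyltransferase Nop2 (1.26 ± 0.20). Genes of the secretory pathway's folding machinery rose in 13 of 19 cases (6 with the keratinocyte covariate) and fell in 1, with a median of 1.20. Pdia4, a disulfide isomerase, was at 237, 129.8 and 221 CPM in NW and 753, 741 and 916 CPM at 1.5 d (log2 change 2.04 ± 0.25, adjusted p = 0.00017). Hsp90b1 rose by 1.62. Hspa5, the master chaperone BiP, which was named after its values were seen, rose by 1.33. In serine, one-carbon and polyamine synthesis 6 of 14 rose (2 with the keratinocyte covariate) and 1 fell. The rises were led by the mitochondrial folate enzyme Mthfd1l (3.53 ± 0.37). NRF2 antioxidant genes rose in 5 of 14 cases, with Srxn1, a sulfiredoxin, at 242, 177 and 151 CPM in NW and 774, 563 and 589.7 CPM at 1.5 d (log2 change 1.76 ± 0.22, adjusted p = 0.000185); 2 were called with the keratinocyte covariate. Proteasome subunits rose in 5 of 16 cases, a count that fell to 2 without NW replicate 1 or 1.5 d replicate 1, to 3 without NW replicate 3, and to 2 with the keratinocyte covariate, and that was 8 with DESeq2.

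Genes of DNA replication and of entry into S phase rose, with 16 of 20 higher, 2 lower and a median log2 change of 1.41 (10 higher with the keratinocyte covariate). Mcm5, a subunit of the replicative helicase, was at 18.5, 14 and 19.3 CPM in NW and 91.6, 78.9 and 132 CPM at 1.5 d (log2 change 2.55 ± 0.27, adjusted p = 5.89e-05). Its partners Mcm7, Mcm2 and Mcm3 rose by 1.77, 1.74 and 1.84, and Uhrf1, which maintains DNA methylation behind the fork, by 1.91. The 2 members that fell were the D-type cyclins Ccnd1 (-1.62 ± 0.34) and Ccnd2 (-0.80 ± 0.21), which act at the start of the cycle and were named after their values were seen; without 1.5 d replicate 2 or 1.5 d replicate 3, 1 of them was called, and with the keratinocyte covariate neither was. Mitotic genes rose in 5 of 22 cases (median 0.74). Plk1, the mitotic kinase, was at 3.36, 3.19 and 8.99 CPM in NW and 23, 31.4 and 29.0 CPM at 1.5 d (log2 change 2.42 ± 0.44, adjusted p = 0.00198). The proliferation marker Mki67 overlapped between groups, at 51.3, 19.4 and 63.1 CPM in NW and 30.9, 62.3 and 44.1 CPM at 1.5 d (log2 change 0.04 ± 0.37, adjusted p = 0.955), and its change turned negative without NW replicate 2 (-0.32) or without 1.5 d replicate 2 (-0.24). CDK inhibitors and p53 targets fell in 6 of 15 cases (median -1.32). Cdkn1a, the p21 inhibitor, was at 559, 804 and 551 CPM in NW and 279, 209 and 191 CPM at 1.5 d (log2 change -1.50 ± 0.22, adjusted p = 0.000613). Gadd45a had a log2 change of -2.35 ± 0.35. Myc was at 560.2, 519 and 487 CPM in NW and 313, 421 and 310.0 CPM at 1.5 d (log2 change -0.58 ± 0.20, adjusted p = 0.048); it lost its call in 10 of 16 alternative settings, where its adjusted p ranged up to 0.168.

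The promoters of the replication genes are shown where their 250 bases hold TTTCCCGC or TTTGGCGC, which resemble the binding pattern of E2F, the factor family that switches on S-phase genes. Of the 15 list members with a promoter in the table, 4 held one of these letter strings on either strand, against 2.39% of the 11725 promoters, 2.83% of those called higher and 1.2% of those called lower. Printed are the 3 with a single listed start, Cdc6, Mcm5 and Mcm6, with the strings in capitals; Cdc6, which loads the helicase, and Mcm6 were chosen after their values were seen.
Cdc6, chr11:98907901-98908150, plus strand: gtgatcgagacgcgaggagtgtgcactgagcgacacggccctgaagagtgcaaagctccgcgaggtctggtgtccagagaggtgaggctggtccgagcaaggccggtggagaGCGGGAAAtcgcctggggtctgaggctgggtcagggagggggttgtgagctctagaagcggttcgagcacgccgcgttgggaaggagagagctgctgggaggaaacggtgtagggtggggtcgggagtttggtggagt
Mcm5, chr8:75109259-75109508, plus strand: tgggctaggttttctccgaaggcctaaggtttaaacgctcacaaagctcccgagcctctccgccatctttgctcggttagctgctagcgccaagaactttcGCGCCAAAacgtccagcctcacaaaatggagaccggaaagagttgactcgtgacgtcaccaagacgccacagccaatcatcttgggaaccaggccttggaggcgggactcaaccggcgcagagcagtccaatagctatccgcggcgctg
Mcm6, chr1:128359706-128359955, minus strand: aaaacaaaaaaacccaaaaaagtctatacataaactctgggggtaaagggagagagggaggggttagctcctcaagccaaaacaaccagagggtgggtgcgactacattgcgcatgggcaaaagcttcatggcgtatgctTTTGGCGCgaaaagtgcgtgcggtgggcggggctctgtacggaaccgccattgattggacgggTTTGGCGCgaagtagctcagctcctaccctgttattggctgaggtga
Cdc6 averaged 0.506 CPM in NW and 11.7 CPM at 1.5 d (log2 change 4.50 ± 0.83), and Mcm6 46.2 and 120.1 CPM (log2 change 1.38 ± 0.27). Other patterns were searched the same way. TGANTCA was in 4.98% of all promoters and 5.66% of those called higher, ACGTG in 21.3% and 22.8%, TTNCNNAA in 28.9% and 29.9%, and the CArG box in 1.13% and 0.88%. Among promoters of genes called lower, the shares in the same order were 6.47%, 17.8%, 29.1% and 1.44%.

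The matrix genes did not rise together. Of 18 collagen chains, 7 rose and 3 fell. The chains with the most counts were those of type I and III collagen. Col1a2 fell, at 63499, 28992 and 54602 CPM in NW and 16456, 19722 and 12423 CPM at 1.5 d (log2 change -1.60 ± 0.46, adjusted p = 0.0222), although leaving out NW replicate 1, NW replicate 3, 1.5 d replicate 1 or 1.5 d replicate 3 ended that call (adjusted p = 0.0732, 0.0613, 0.0546 and 0.0902). Col1a1 was at 55845, 20448 and 50171 CPM in NW and 11092, 20878 and 11163 CPM at 1.5 d and did not pass (log2 change -1.55 ± 0.54, adjusted p = 0.0517), while 7 alternatives called it lower, DESeq2 with an adjusted p of 0.0071. Col3a1 showed no called change, at 49126, 20022 and 39546 CPM in NW and 44171, 53903 and 51999 CPM at 1.5 d (log2 change 0.47 ± 0.43, adjusted p = 0.473). NW replicate 2 was the lowest unwounded library for all 3 chains. The rises were among chains with fewer counts. Col8a1, a short-chain collagen, was at 20.3, 28.0 and 29.1 CPM in NW and 343, 348 and 348 CPM at 1.5 d (log2 change 3.75 ± 0.29, adjusted p = 7.62e-06). Col12a1, a fibril-associated collagen, was at 33.1, 31.1 and 23.9 CPM in NW and 198, 142 and 195 CPM at 1.5 d (log2 change 2.60 ± 0.29, adjusted p = 8.33e-05). Col5a3 rose by 2.88. Col7a1, the anchoring fibril collagen, fell by 2.28. It is also made by keratinocytes, and without NW replicate 3 or with the keratinocyte covariate 1 collagen was called lower.

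Enzymes that process and cross-link collagen rose in 9 of 17 cases and fell in 1 (median 0.85). Beside Loxl3, Plod2, a lysyl hydroxylase whose product favours stable cross-links, was at 2.29, 0.625 and 4.61 CPM in NW and 130.0, 71.6 and 160.4 CPM at 1.5 d (log2 change 5.59 ± 0.60, adjusted p = 6.05e-05), and Loxl1 and Bmp1, a procollagen protease, rose by 1.89 and 1.64. Lox, named after its values were seen, rose by 1.99. Matricellular proteins rose in 10 of 16 cases and fell in 2 (median 1.66; 1 lower without 1.5 d replicate 2, without 1.5 d replicate 3 or with the keratinocyte covariate). Thbs4, a thrombospondin, was at 50.3, 38.1 and 68.6 CPM in NW and 623, 752 and 643 CPM at 1.5 d (log2 change 3.68 ± 0.37, adjusted p = 4.51e-05). Spp1, osteopontin, was at 4.62, 6.18 and 0.597 CPM in NW and 166, 57.5 and 65.0 CPM at 1.5 d (log2 change 4.66 ± 0.72, adjusted p = 0.000707). The groups overlapped for neither. Sparc, a collagen-binding protein, fell, at 27707, 21092 and 24776 CPM in NW and 15739.8, 7558 and 6069 CPM at 1.5 d (log2 change -1.32 ± 0.37, adjusted p = 0.0188); without 1.5 d replicate 2 its adjusted p was 0.0715 and without 1.5 d replicate 3 it was 0.0831. In the elastic fibre list 6 of 17 rose and 4 fell. Efemp2, or fibulin 4, rose by 3.10, Emilin1 by 3.19 and Fbn2, the fibrillin of developing tissue, by 2.80, whereas Mfap4 went from 1384, 1307 and 1083 CPM to 257, 218 and 124 CPM (log2 change -2.66 ± 0.37, adjusted p = 0.00038).

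Of 11 small leucine-rich proteoglycans, which coat collagen fibrils, 4 fell and 1, Bgn, rose (1.15 ± 0.21). Dcn, decorin, overlapped between the groups (log2 change -0.30 ± 0.28, adjusted p = 0.486). Fmod, which regulates fibril thickness, fell by 2.08. Hyaluronan and large proteoglycan genes rose in 7 of 12 cases and fell in 2. The rises numbered 4 without NW replicate 2, without NW replicate 3 or with the keratinocyte covariate. Prg4, the lubricating proteoglycan lubricin, was at 22.3, 19.2 and 22.0 CPM in NW and 1649, 875 and 1329 CPM at 1.5 d (log2 change 5.92 ± 0.48, adjusted p = 1.26e-05). Vcan, versican, was at 61.9, 30.9 and 74.0 CPM in NW and 374, 394 and 414 CPM at 1.5 d (log2 change 2.83 ± 0.35, adjusted p = 0.000186). Cemip, which starts hyaluronan breakdown, had no count in NW and 1.27, 3.08 and 7.24 CPM at 1.5 d, at least 122-fold higher.

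Proteases and their inhibitors rose in 13 of 21 cases and fell in 3 (median 1.73). Timp1, an inhibitor of metalloproteases, was at 24.9, 41.7 and 28.8 CPM in NW and 3506, 809 and 1119 CPM at 1.5 d (log2 change 5.83 ± 0.55, adjusted p = 3.1e-05), with 1.5 d replicate 1 more than 3 times the other libraries of that time. Timp3, which stays bound to matrix, went the other way, at 679.7, 322 and 449 CPM in NW and 129.9, 79.8 and 92.0 CPM at 1.5 d (log2 change -2.27 ± 0.30, adjusted p = 0.000268). Mmp19 rose by 3.33, and Mmp3, named after its values were seen, by 1.73. Mmp13, named likewise, had a log2 change of 4.10 ± 1.30 (adjusted p = 0.0348), but 8 of 16 alternatives ended that call, DESeq2, limma-voom and leaving out NW replicate 1, NW replicate 2, 1.5 d replicate 1 or 1.5 d replicate 2 among them (adjusted p up to 0.104). Plat, the tissue plasminogen activator, rose (1.75 ± 0.26). Of 16 integrin chains 5 rose and 1 fell. The rises numbered 3 without NW replicate 2, NW replicate 3 or 1.5 d replicate 3 and with the keratinocyte covariate. Itga5, the fibronectin receptor chain, was at 137, 73.2 and 66.9 CPM in NW and 1146, 1129.5 and 1334 CPM at 1.5 d (log2 change 3.70 ± 0.33, adjusted p = 2.2e-05).

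Contractile and myofibroblast genes rose in 9 of 19 cases (median 0.75). Acta2, smooth muscle actin and the classic myofibroblast marker, was at 11.3, 8.82 and 5.51 CPM in NW and 80.0, 29.6 and 27.5 CPM at 1.5 d (log2 change 2.42 ± 0.44, adjusted p = 0.002). Actn1, which bundles actin, was at 2.06, 5.69 and 3.48 CPM in NW and 33.5, 31.1 and 33.5 CPM at 1.5 d (log2 change 3.12 ± 0.32, adjusted p = 4.51e-05). Cald1, caldesmon, rose by 1.81. Acta2 at 1.5 d was therefore above NW in every library but under 100 CPM.

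Growth factor genes rose in 10 of 22 cases and fell in 2 (6 higher with the keratinocyte covariate). Angptl4 was at 109, 58.7 and 74.5 CPM in NW and 835, 498 and 527 CPM at 1.5 d (log2 change 2.94 ± 0.30, adjusted p = 4.51e-05). Fgf7, which stimulates keratinocytes, Vegfd and Pgf, which act on vessels, and Igf1, named after its values were seen, rose by 2.30, 2.14, 3.10 and 1.08 on the log2 scale. The Igf1 call was lost without 1.5 d replicate 1. Wnt pathway genes fell in 7 of 20 cases and rose in 2 (1 with the keratinocyte covariate; median -0.94). Rspo1, which amplifies Wnt signals, was at 77.1, 46.7 and 44.9 CPM in NW and 11.4, 5.71 and 3.12 CPM at 1.5 d (log2 change -3.07 ± 0.50, adjusted p = 0.000996). Wnt5a fell by 1.85. The count of falls was 3 without NW replicate 1 or NW replicate 2 and with the keratinocyte covariate, and 4 without NW replicate 3, 1.5 d replicate 2 or 1.5 d replicate 3. In the TGF-beta and BMP list 7 of 21 fell (4 with the keratinocyte covariate) and 4 rose. Among ligands, Bmp4 was at 37.9, 38.6 and 42.1 CPM in NW and 2.20, 5.15 and 1.70 CPM at 1.5 d (log2 change -3.71 ± 0.51, adjusted p = 0.000362). Bmp2 fell by 2.46, while Inhba, the activin A subunit, was at 26.3, 4.77 and 9.29 CPM in NW and 543, 128 and 271 CPM at 1.5 d (log2 change 4.55 ± 0.65, adjusted p = 0.000437). The BMP target Id3 fell by 2.30, as did Id1, named after its values were seen, by 3.50.

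Retinoid and steroid genes rose in 6 of 15 cases and fell in 3, with 3 and 1 called without NW replicate 3, without 1.5 d replicate 1 or with the keratinocyte covariate, and 1 lower without 1.5 d replicate 3. The enzymes that make retinoic acid were prominent: Rdh10, which oxidises retinol, was at 18.9, 11.9 and 13.7 CPM in NW and 369, 201 and 370.0 CPM at 1.5 d (log2 change 4.40 ± 0.33, adjusted p = 7.6e-06). Aldh1a2, which completes the synthesis, had no count in NW and 24.8, 6.60 and 12.6 CPM at 1.5 d, at least 395-fold higher. The retinoic acid receptor Rarg fell by 1.41. Among glucocorticoid and circadian genes 3 of 17 rose and 4 fell, a count of falls that was 2 without NW replicate 2 or 1.5 d replicate 3 and 1 with the keratinocyte covariate. The kinase Sgk1 was at 134, 158 and 129 CPM in NW and 755, 782 and 658 CPM at 1.5 d (log2 change 2.38 ± 0.20, adjusted p = 1.62e-05), whereas Tsc22d3, a glucocorticoid-induced gene also called GILZ, fell by 2.21. The clock gene Per2 rose by 3.78.

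Markers of fibroblast state changed in both directions. Ly6a, the gene behind the sort, was at 1142, 1146 and 869.7 CPM in NW and 2916, 1482 and 1662 CPM at 1.5 d (log2 change 0.94 ± 0.28, adjusted p = 0.0265); its call was lost without NW replicate 3, without 1.5 d replicate 1 and with the keratinocyte covariate (adjusted p = 0.0863, 0.111 and 0.247). Because cells were gated on SCA1, that level is not an independent finding. Pdgfra, the receptor that marks most dermal fibroblasts, was at 164, 104 and 179 CPM in NW and 443, 974 and 955 CPM at 1.5 d (log2 change 2.41 ± 0.35, adjusted p = 0.000551). Cd34, a marker of adventitial fibroblasts of which 5.6% of exon bases are shared with another gene, was at 1605, 1104 and 1219.9 CPM in NW and 779, 647 and 646 CPM at 1.5 d (log2 change -0.92 ± 0.23, adjusted p = 0.0124); without 1.5 d replicate 3 its adjusted p was 0.0537 and with the keratinocyte covariate 0.0612. The general fibroblast markers rose in 6 of 16 cases and fell in 2. The rises numbered 3 without NW replicate 2, and 2 without NW replicate 3 or with the keratinocyte covariate.

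Adventitial and fascia markers, which include genes of progenitor-like fibroblasts, fell in 8 of 15 cases (median -1.01). The count was 5 without NW replicate 1 or NW replicate 3 and with the keratinocyte covariate. Efhd1, a calcium-binding mitochondrial protein, was at 93.9, 75.4 and 82.1 CPM in NW and 1.53, 0.985 and 5.20 CPM at 1.5 d (log2 change -5.01 ± 0.78, adjusted p = 0.000796). Clec3b, tetranectin, was at 475, 562 and 357 CPM in NW and 156, 74.2 and 34.0 CPM at 1.5 d (log2 change -2.40 ± 0.47, adjusted p = 0.00282). The best known members stood near the threshold. Pi16 was at 2106, 2113 and 1916 CPM in NW and 1479.9, 748 and 1045 CPM at 1.5 d (log2 change -0.91 ± 0.31, adjusted p = 0.0481). Dpp4 was at 422, 231 and 298 CPM in NW and 102, 133 and 237 CPM at 1.5 d (log2 change -1.01 ± 0.35, adjusted p = 0.0487). Over the 16 alternatives the adjusted p ranged from 0.0152 to 0.163 for Pi16 and from 0.0181 to 0.194 for Dpp4. Papillary and hair follicle dermal markers split evenly, 3 of 12 higher and 3 lower (1 lower without NW replicate 1, NW replicate 3 or 1.5 d replicate 1 and with the keratinocyte covariate), with Crabp1 (3.42 ± 0.57) and Apcdd1, a Wnt inhibitor (-2.68 ± 0.44), on opposite sides. Preadipocyte markers fell in 5 of 17 cases and rose in 3. The falls numbered 3 without NW replicate 2, NW replicate 3 or 1.5 d replicate 3 and 1 with the keratinocyte covariate. Apoe, an apolipoprotein also made by other skin cells, was at 2236, 4820.4 and 2816 CPM in NW and 333, 413 and 271 CPM at 1.5 d (log2 change -3.28 ± 0.58, adjusted p = 0.00155).

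Under the same limits, with the mean taken in NW, the steepest falls were largely genes known from epidermis. Krt15 was at 3981, 6259.9 and 5455 CPM in NW and 86.6, 208 and 87.6 CPM at 1.5 d (log2 change -5.36 ± 0.64, adjusted p = 0.000131). Krt10, a keratin of differentiating epidermis, was at 1099, 3071 and 3119 CPM in NW and 32.6, 112 and 51.2 CPM at 1.5 d (log2 change -5.21 ± 0.80, adjusted p = 0.000701). Ly6g6c, Skint6, Acer1, a ceramidase of the epidermis, and Sptlc3, a sphingolipid enzyme, had log2 changes of -5.75 ± 0.81, -5.01 ± 0.94, -4.98 ± 0.95 and -4.98 ± 0.85. They moved with the keratinocyte share of counts given above, from 3.05% to 0.61%. With the keratinocyte covariate these 6 genes were still called lower, but that fit cannot fully separate the keratinocyte score from wounding. Car3, a carbonic anhydrase abundant in fat, was at 32.0, 66.8 and 40.0 CPM in NW and 0.766, 0.493 and 0.730 CPM at 1.5 d (log2 change -6.12 ± 0.91, adjusted p = 0.000572; adjusted p = 0.0577 with the covariate). It moved with the mature adipocyte markers, which took 0.0106% ± 0.00247 of counts in NW and 0.00167% ± 0.000181 at 1.5 d (SD, n = 3); 5 of 8 of those were called lower, 3 without NW replicate 3 and none with the keratinocyte covariate. The part of adipocyte RNA in that fall was not tested. Cyp3a13, Pdzk1ip1 and Efhd1 completed the 10 largest falls.

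Set against the earlier wound time, 1.5 d differed from 16 h in 2.86% of genes, with 356 higher (2.39%) and 70 lower (0.47%). The next step, from 1.5 d to 3 d, called 0.141%, of which 15 were higher (0.101%) and 6 lower (0.0403%) at 3 d. These comparisons share the 1.5 d libraries with each other and with the one against NW. Their counts moved with single libraries: leaving out any 1 of the 6 libraries concerned gave 137 to 252 higher and 10 to 44 lower against 16 h, and from 1.5 d to 3 d only 2 were higher without 1.5 d replicate 3 or without 3 d replicate 2. Mitotic genes were higher at 1.5 d than at 16 h in 14 of 22 cases, with a median log2 difference of 2.02. That count was 4 without 16 h replicate 2 and 7 without 16 h replicate 3, 1.5 d replicate 2 or 1.5 d replicate 3 and with the replicate block. Ccnb2, a mitotic cyclin, was at 10.04, 5.15 and 5.90 CPM at 16 h and 64.3, 58.1 and 66.5 CPM at 1.5 d, without overlap. Collagen processing genes were higher in 7 of 17 cases, with 3, 2 and 3 when 16 h replicate 1, 2 or 3 was left out, 4 without 1.5 d replicate 3 and 12 with DESeq2.

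Single genes showed different courses, and 5 of the 12 named for their difference from 16 h were called in all 14 alternatives for that step: Lrrc17, Angptl1, Tmem176a, Ncl and D17H6S56E-5. No keratinocyte setting was among the 14 alternatives for either step between wound times. Keratinocyte markers took 0.897% to 1.49% of counts at 16 h and 0.442% to 0.778% at 1.5 d, without overlap. The part of keratinocyte RNA in the differences from 16 h was not tested. Lrrc17, a secreted leucine-rich repeat protein, was at 99.2, 83.1 and 72.5 CPM in NW, 10.7, 16.9 and 12.4 CPM at 16 h and 166, 181 and 228 CPM at 1.5 d (log2 change 3.84 ± 0.24, adjusted p = 9.12e-06 against 16 h), thus below NW first and above it later. Angptl1 took the same dip without regaining the NW level. It was at 118, 94.3 and 90.7 CPM in NW, 3.07, 3.16 and 6.47 CPM at 16 h and 27.3, 40.9 and 46.9 CPM at 1.5 d (log2 change 3.18 ± 0.38, adjusted p = 0.00133). Tmem176a, a membrane protein, was at 5.34, 8.75 and 6.3 CPM in NW, 9.41, 6.42 and 7.51 CPM at 16 h and 141, 42.4 and 71.8 CPM at 1.5 d. Its 16 h values overlapped those of NW, and all 1.5 d values lay above both. Ncl, nucleolin of the ribosome assembly line, fell from 1439.9, 1800.1 and 1635 CPM at 16 h to 681, 714 and 528 CPM at 1.5 d (log2 change -1.34 ± 0.21, adjusted p = 0.006) and was still above every NW library.

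The other differences from 16 h were less stable. Nos2, the inducible nitric oxide synthase, was at 3.97, 1.02 and 0.168 CPM at 16 h and 79.1, 6.06 and 60.6 CPM at 1.5 d (log2 change 4.82 ± 1.08, adjusted p = 0.0329), with 1.5 d replicate 2 at about 1 in 10 of the others. Its adjusted p reached 0.181 with limma-voom and passed 0.05 without 16 h replicate 2, 16 h replicate 3, 1.5 d replicate 1 or 1.5 d replicate 3. Hp, the haemoglobin-binding haptoglobin, was at 19.1, 17.1 and 11.6 CPM at 16 h and 293, 99.3 and 79.4 CPM at 1.5 d, and 10 of 14 alternatives called it. Neat1, a long noncoding RNA of nuclear paraspeckles, was at 559, 788 and 471 CPM in NW, 226, 198 and 292 CPM at 16 h, 110.0, 77.6 and 109 CPM at 1.5 d and 198, 284 and 285 CPM at 3 d. Every 1.5 d library was below every library of the other groups, although the difference from 16 h was called in 9 of 14 alternatives.

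From 1.5 d to 3 d the called genes included markers of activated fibroblasts, and of the 9 named for this step Tnn alone was called in all 14 alternatives. Tnn, which encodes tenascin N, was at 11.4, 13.9 and 13.8 CPM at 1.5 d and 189, 124 and 91.3 CPM at 3 d (log2 change 3.37 ± 0.36, adjusted p = 0.00256). Lrrc15, a marker of myofibroblasts, was at 35.1, 48.9 and 59.3 CPM at 1.5 d and 679, 777 and 342 CPM at 3 d (log2 change 3.65 ± 0.60, adjusted p = 0.0327; up to 0.157 over the alternatives). Acta2 was at 6.90, 5.48 and 3.39 CPM at 16 h, 80.0, 29.6 and 27.5 CPM at 1.5 d and 235, 199.6 and 362 CPM at 3 d (log2 change 2.54 ± 0.44, adjusted p = 0.0457 for the last step; up to 0.167). For these genes no 3 d library overlapped the 1.5 d libraries, which held for 13.6% of all genes in that step. Postn, periostin, was at 1282, 1451 and 996 CPM at 1.5 d and 5509, 6759 and 3913 CPM at 3 d (log2 change 2.12 ± 0.30, adjusted p = 0.0165; up to 0.116). In the other direction Alpl, alkaline phosphatase, was at 2.02, 0.921 and 1.63 CPM in NW, 38.7, 25.5 and 36.1 CPM at 1.5 d and 2.16, 3.45 and 5.20 CPM at 3 d (log2 change -3.21 ± 0.45, adjusted p = 0.0165; up to 0.119). Fgf23, a phosphate-regulating hormone, was at 1.22, 1.02 and 0.498 CPM in NW, 70.7, 39.6 and 40.3 CPM at 1.5 d and 9.77, 10.1 and 3.07 CPM at 3 d (log2 change -2.72 ± 0.47, adjusted p = 0.0463; up to 0.15). Both were thus above NW at 1.5 d and lower again at 3 d. When 1 of these 6 libraries was left out, each of these 5 less stable calls was lost in at least 1 case, always including 3 d replicate 2.

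**Figure D5:**
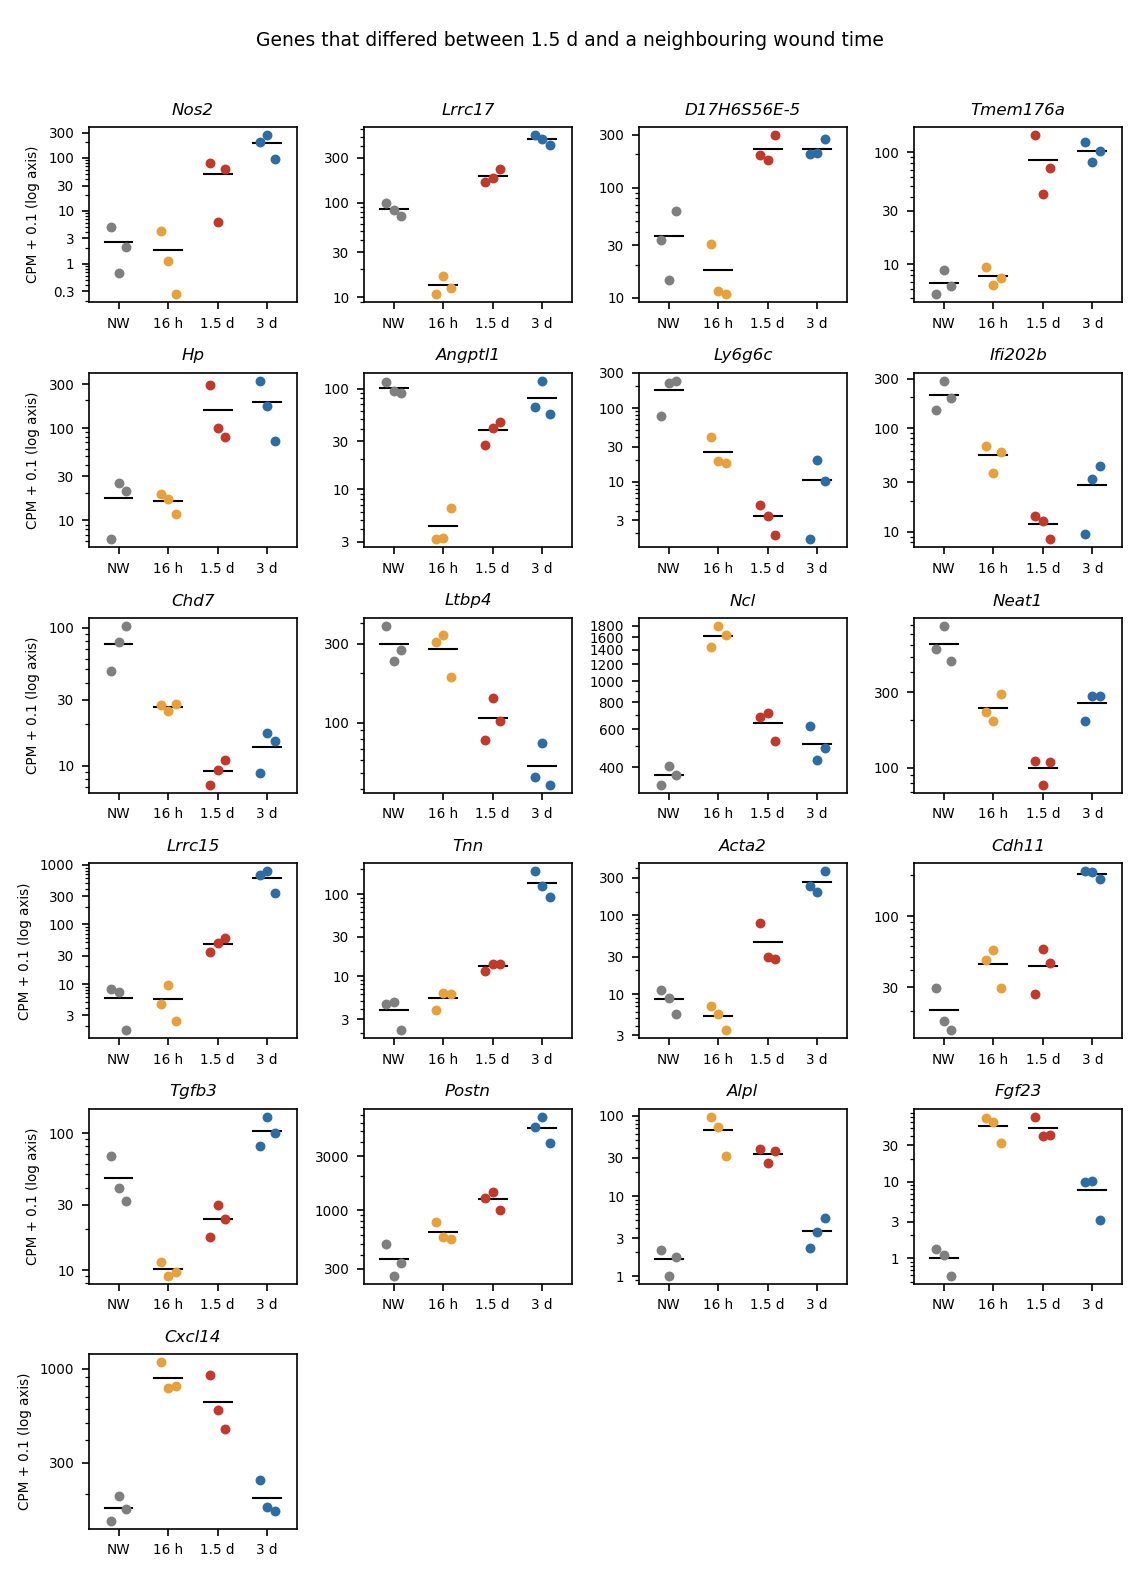
Level in each library as CPM plus 0.1 on a log axis, with 1 point per mouse and a bar at the mean of 3, for the 21 genes that were called against NW and had the largest called differences between 1.5 d and 16 h (from Nos2 to Neat1) or between 3 d and 1.5 d (from Lrrc15 to Cxcl14). Lrrc17 and Angptl1 are lowest at 16 h, Neat1 and Ifi202b lie lowest by their mean at 1.5 d, and Acta2, Lrrc15, Tnn and Postn are highest at 3 d.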

How the data were processed

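Sorted fibroblast RNA was sequenced from 3 mice per group. The authors deposited raw counts per gene symbol; per the file headers, featureCounts 2.0.0 counted read pairs over exons of an mm10 RefSeq gene table with no strand, multi-mapping or overlap option set, so antisense or overlapping genes and near-identical copies are uncertain. The submitters' processing notes also name STAR, SAMtools, Subread and Partek. The length column is in bases, per the file headers, and was not used in a result. Groups follow the labels. edgeR 4.0.16 (R 4.3.3; trimmed mean of M-values, low-count filter by group, robust quasi-likelihood test, Benjamini-Hochberg over 14901 genes) was fitted to all 12 libraries, and the SE is the size of the log2 change over the square root of F; the test was checked on simulated data. Alternatives used DESeq2 1.42.0, limma 3.58.1, other scalings and filters, the 6 libraries alone, a replicate block, a keratinocyte score (against NW only), and each library left out.

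The members and the 54 gene lists were chosen with earlier results of these data known. Named genes are 23 panel genes, the 10 largest rises and falls (called, at least 20 CPM, no overlap), up to 5 per list by p, the 6 largest called differences each way between wound times, the 10 smallest p and the 5 most abundant; others are said to be chosen later. Of 891 listed symbols, 881 are in the table and 830 were tested. A fold against a group at 0 used a floor of 3 counts per group and covers counting error only.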

Additional observations from a re-analysis of the deposited data

Results flagged for a closer look

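The following genes are singled out because their level at 1.5 d also differed from a neighbouring wound time by a test of that difference (edgeR, adjusted p under 0.05). Against 16 h, the log2 change was 4.82 for Nos2, 3.84 for Lrrc17, 3.67 for D17H6S56E-5, 3.45 for Tmem176a, 3.30 for Hp and 3.18 for Angptl1. It was -2.96 for Ly6g6c, -2.22 for Ifi202b, -1.56 for Chd7, -1.37 for Ltbp4, -1.34 for Ncl and -1.27 for Neat1. Of the 14 alternatives for that step, 5 called Ly6g6c, 8 Ifi202b, 9 Chd7 and 9 Ltbp4. From 1.5 d to 3 d the log2 change was 3.65 for Lrrc15, 3.37 for Tnn, 2.54 for Acta2, 2.24 for Cdh11, 2.15 for Tgfb3 and 2.12 for Postn. It was -3.21 for Alpl, -2.72 for Fgf23 and -1.78 for Cxcl14. Against NW, the calls of Cdh11 and Tgfb3 were each lost in 6 of 16 alternatives.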

How the results depend on the processing

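In 1.5 d against NW, the 2034 genes called higher became 747 and the 1613 called lower became 420 with the keratinocyte covariate, whose score overlaps in no library between the groups; every other setting stayed within 1.5 times, except that 961 were lower without 1.5 d replicate 3. Leaving out 1 library gave 1431 to 1806 higher and 961 to 1350 lower. Of 295 named genes called, 197 were called in all 16 alternatives, 98 were lost in at least 1, and none changed sign. Among named genes not called, the log2 change of Mki67 ranged from -0.32 (without NW replicate 2) to 0.39 (without NW replicate 3) and was -0.24 without 1.5 d replicate 2, and that of Ptprc became -0.27 and Krt14 0.59 with the keratinocyte covariate. Of the 12 named genes not called, 7 were called in at least 1 alternative: Ptprc, with a log2 change of 8.47, was called higher without NW replicate 1, which leaves NW without a count of it, and Krt14 was called lower with only the 6 libraries compared (adjusted p = 0.0255). Against 16 h, 356 higher and 70 lower became 835 and 357 with DESeq2, and leaving out 1 library gave 137 to 252 higher and 10 to 44 lower. From 1.5 d to 3 d, 15 higher and 6 lower became 28 and 23 without the low-count filter, 121 and 74 with DESeq2, and 52 and 22 with limma-voom; 30 were lower with total-count scaling and 3 with only the 6 libraries compared, and leaving out 1 library gave 2 to 15 higher and 0 to 14 lower. Same-numbered NW and 1.5 d libraries did not deviate together (correlations of -0.06, -0.08 and 0.04). Pairs with different numbers had correlations from -0.10 to 0.15. Such values cannot exclude that same-numbered mice shared a harvest day or batch. A replicate block gave 1693 higher and 1369 lower against NW, and 193 and 18 against 16 h. The causes of these shifts were not tested. At 27407164 to 43493475 counts per library, the floor of 3 counts is 0.0346 CPM over NW and 0.0259 CPM over 1.5 d, and genes below it are not detectable at this depth.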
